A study of Homo sapiens with 24 samples.

Results

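The antioxidant response controlled by the transcription factor NRF2 is followed here through 9 genes: NFE2L2, which encodes NRF2 itself, and 8 genes known as its targets, HMOX1, GCLC, GCLM, SRXN1, TXNRD1, TXN, PGD and OSGIN1. The genes were chosen by name, with earlier results of these data known. Each is the row of the deposited count table whose Ensembl identifier, without its version, maps to that symbol, which gave 9 of 60668 rows. All 9 passed the filter on low counts and so belong to the 22158 genes tested. The lowest count of any of the 9 in any library was 235, for OSGIN1.

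In resting cells KEAP1 binds NRF2 and delivers it to a CUL3 ubiquitin ligase for destruction. Oxidants and electrophiles modify KEAP1, NRF2 then accumulates, and together with small MAF proteins it binds antioxidant response elements in its target genes, where BACH1 is a competing repressor. Much of this control acts on the NRF2 protein, so NFE2L2 mRNA is not a measure of NRF2 activity. In mammary epithelium, as elsewhere, the targets make glutathione, reduce thioredoxin and peroxiredoxins, supply NADPH and break down haem.

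RNA was sequenced from 24 libraries of MCF-10A, a human breast epithelial line that is immortal but not tumorigenic, grown as 3-dimensional cultures on Matrigel, a basement membrane gel. The lines are wild-type MCF-10A, called parental below, and MCF-10A MYC-ER, in which MYC is joined to an oestrogen receptor domain that keeps it inactive until 4-hydroxytamoxifen (4-OHT) binds. Each line has 3 replicates at 0, 8, 24 and 48 h of 1 µM 4-OHT, which makes 8 groups. MYC-ER libraries at 8, 24 and 48 h follow the activated fusion protein, while the parental libraries at these times show the drug without it.

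All 8 groups were seeded at 10000 cells per well and harvested together on day 5, so they share culture age and differ in line and in hours of drug. The 0 h groups received no 4-OHT, and the labels name no vehicle. They also do not give the promoter that drives MYC-ER, the species of its receptor part, or whether the line is 1 clone or a pool. The labels number the replicates, and nothing says that they came from separate cultures, so p-values measure only the spread between these samples. In bulk RNA, a change in a gene per cell and a change in the share of cells that express it cannot be told apart.

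Library totals ran from 136860029 to 182438505 counts. No 2 replicates agreed within sampling noise. Chi-square per degree of freedom was 173 to 285 between the parental 0 h libraries and 8.93 to 68.8 in the other groups, so the parental 0 h group varied most, and every parental change from 0 h rests on it. MYC rose in MYC-ER cells from 387 ± 8.02 CPM (counts per 1e+06 counts, SD, n = 3) to 795 ± 1.77 CPM over the first 8 h. It was below 0 h at 24 h (321 ± 8.84 CPM) and 48 h (248 ± 4.72 CPM). The parental values were 532 ± 68.7 CPM at 0 h and 463 ± 17.5 CPM at 8 h. Parental libraries were at 511, 490 and 517 CPM at 24 h and 486, 534 and 556 CPM at 48 h, above MYC-ER at both times. Whether the MYC row also holds reads of the fusion is not given in the sources used here, so MYC does not check the labels. All 6 basal markers, KRT5, KRT14 and TP63 among them, had counts in every library, CDH5 and CD3E were at 0 throughout, and PTPRC was at 0 in 7 of the 8 groups. Of the same endothelial and leukocyte lists, CD68 had 728 to 3536 counts and PECAM1 8 to 335 counts in every library. In MYC-ER cells the mean of CD68 was 16.7 CPM before 4-OHT, 21.9 CPM after 8 h and 5.68 CPM after 48 h, and that of PECAM1 went from 0.11 to 1.01 CPM in the first 8 h. Summed, the basal markers were at 10530 to 18280 CPM in MYC-ER and 19190 to 30370 CPM in parental libraries. The summed level of 5 mesenchymal markers (COL1A1, COL3A1, DCN, PDGFRB, LUM) was 369.6 to 376.9 CPM in MYC-ER at 0 h and 77.3 to 133 CPM in the other 7 groups, where COL3A1 was at 0. Mitochondrial transcripts took 9.24% to 9.71% of counts in MYC-ER at 0 h and 3.86% to 7.78% elsewhere. The part of these in the differences below was not tested.

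The promoters of the genes carry the element through which NRF2 is known to act to differing degrees. RefSeq promoter sequences (GRCh38.p14, 250 bases before the start site and 50 from it on) were held for 8 of the 9 genes, in 10 entries; HMOX1 had none. The core of the antioxidant response element, TGACNNNGC on either strand, occurred in 4 of the 10 entries, belonging to GCLM, TXNRD1 and PGD. It occurred in 13.3% of all 35114 promoters of that length. The E-box CACGTG, a motif that MYC is known to bind, occurred in 0 of the 10 entries and in 7.3% of all promoters. A match is a run of letters and not a measured binding site. The following promoters are shown because GCLM, TXNRD1 and PGD hold the core while their mRNAs moved differently in MYC-ER cells, and because OSGIN1, without the core in this window, had the largest change of the 9. All are 5′ to 3′ on the gene's strand, with the core in capitals.
GCLM, chr1:93909381-93909680, minus strand: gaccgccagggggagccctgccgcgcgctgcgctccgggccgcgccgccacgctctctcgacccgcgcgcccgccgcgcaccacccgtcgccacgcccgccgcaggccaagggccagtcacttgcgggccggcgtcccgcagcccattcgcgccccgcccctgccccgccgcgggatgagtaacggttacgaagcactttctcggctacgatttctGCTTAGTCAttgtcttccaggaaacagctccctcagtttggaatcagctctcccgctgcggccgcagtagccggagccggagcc
TXNRD1, first promoter, chr12:104215529-104215828, plus strand: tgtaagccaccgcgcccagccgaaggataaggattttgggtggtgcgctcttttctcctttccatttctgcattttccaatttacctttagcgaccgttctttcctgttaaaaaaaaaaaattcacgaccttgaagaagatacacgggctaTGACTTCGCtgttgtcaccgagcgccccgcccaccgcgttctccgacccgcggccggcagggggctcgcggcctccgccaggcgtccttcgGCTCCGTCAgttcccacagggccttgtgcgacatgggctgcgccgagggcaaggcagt
PGD, chr1:10398814-10399113, plus strand: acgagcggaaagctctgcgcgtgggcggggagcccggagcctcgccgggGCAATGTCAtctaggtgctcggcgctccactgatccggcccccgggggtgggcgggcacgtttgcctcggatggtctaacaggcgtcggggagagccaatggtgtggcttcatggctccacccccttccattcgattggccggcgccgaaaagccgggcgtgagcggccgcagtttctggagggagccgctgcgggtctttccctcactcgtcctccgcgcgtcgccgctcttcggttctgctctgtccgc
OSGIN1, chr16:83952990-83953289, plus strand: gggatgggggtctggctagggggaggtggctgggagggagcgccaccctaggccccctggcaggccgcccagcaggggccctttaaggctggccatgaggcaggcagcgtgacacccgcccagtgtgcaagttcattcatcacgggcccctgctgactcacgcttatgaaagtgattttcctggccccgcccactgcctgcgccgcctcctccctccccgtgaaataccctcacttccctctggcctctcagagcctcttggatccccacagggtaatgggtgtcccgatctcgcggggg
Counting bases before the start site as negative, the GCLM core begins at -34 and reads TGACTAAGC on the opposite strand. TXNRD1 has TGACTTCGC at -99 and, on the opposite strand, TGACGGAGC at -8 of its first start site. PGD has TGACATTGC on the opposite strand at -201.

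In MYC-ER cells the 9 genes did not move as a block when 4-OHT was added. At 8 h, 5 of them rose (GCLM, SRXN1, TXN, PGD, OSGIN1), 3 fell (NFE2L2, HMOX1, TXNRD1) and GCLC did not pass the test. Of all genes tested, 67.6% passed in this comparison (32.2% higher, 35.4% lower), so the number that passed says little about these 9, and what follows concerns direction and size. A gene passed where the adjusted p of edgeR's quasi-likelihood test, with Benjamini-Hochberg adjustment over all 22158 genes, was under 0.05. The median log2 change of the 9 was 0.36, beside -0.10 over all genes. Replicates of 0 h and 8 h did not overlap for any of the 9, as for 73.5% of all genes.

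**Figure D1:**
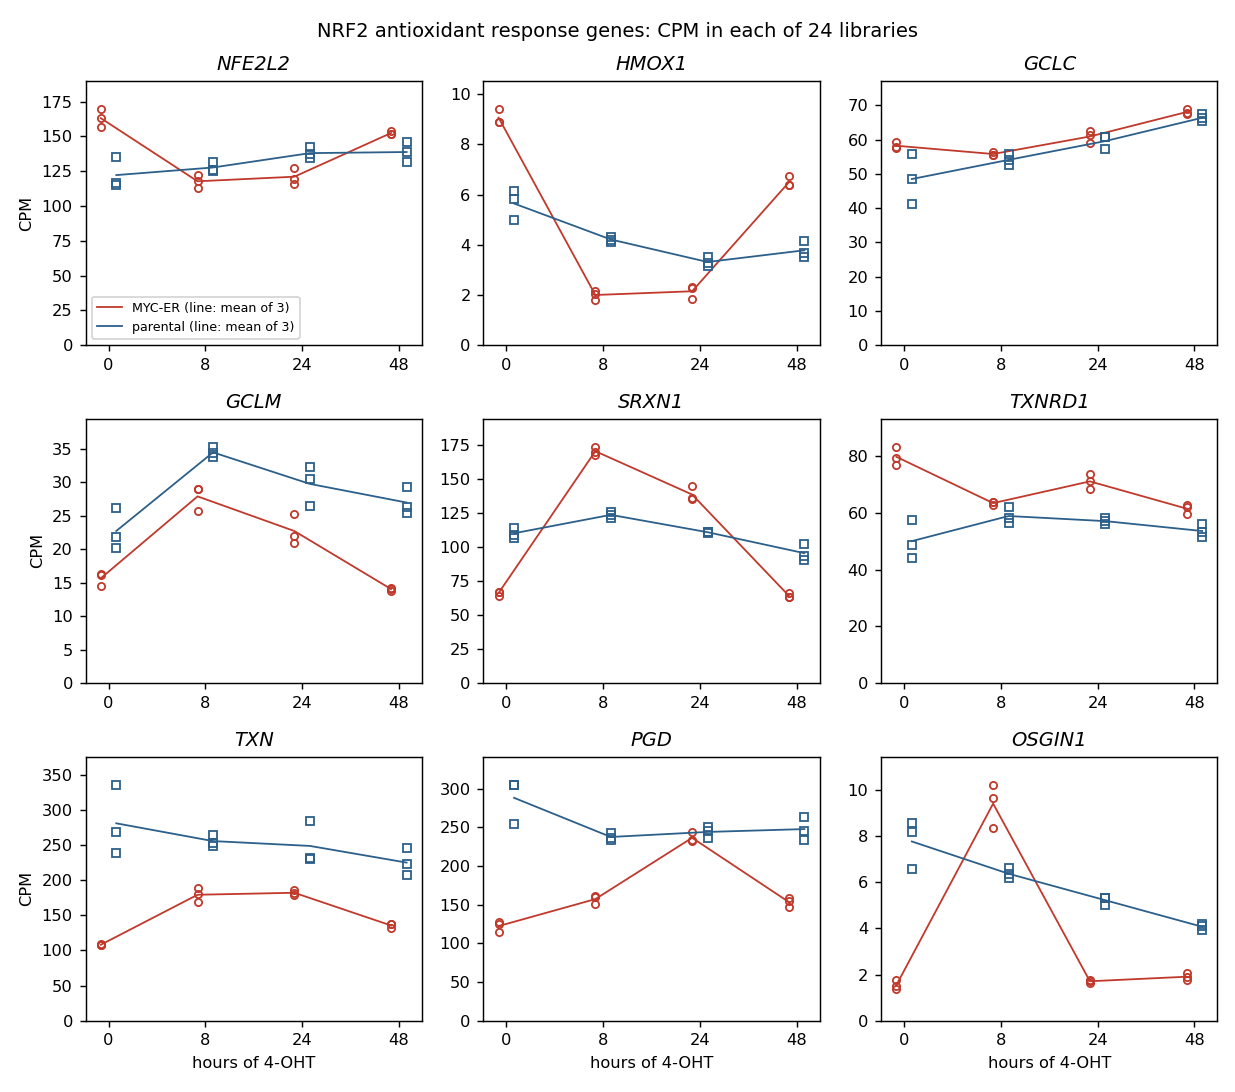
Level of each of the 9 genes in every library, in CPM on linear axes that start at 0, against hours of 4-OHT (categories, not to scale). Circles are MYC-ER and squares parental libraries, and lines join the means of 3 replicates. OSGIN1 in MYC-ER cells is high at 8 h alone, whereas SRXN1 is high at 8 and 24 h and close to its 0 h level at 48 h (62.9 to 65.9 against 64.2 to 67.1 CPM).

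OSGIN1 encodes an oxidative stress-induced growth inhibitor. Its level in MYC-ER cells was 1.36, 1.50 and 1.77 CPM at 0 h and 10.2, 8.37 and 9.64 CPM at 8 h, a log2 change of 2.61 (SE 0.113), or 6.09-fold, with an adjusted p of 7.9e-15. The rise did not last: the level fell 5.49-fold between 8 and 24 h (log2 change -2.46, SE 0.112, adjusted p 4.6e-14). At 24 h the libraries, at 1.78, 1.70 and 1.65 CPM, overlapped those at 0 h (log2 change 0.15, adjusted p 0.252), and 3 of 16 alternatives put them past the threshold at up to 0.29. By 48 h it stood at 2.06, 1.88 and 1.79 CPM, just above 0 h, with a log2 change of 0.31 and an adjusted p of 0.0279 that was lost in 5 of 16 alternatives, 4 of them the removal of a library (MYC-ER 0 h replicates 1 and 2, MYC-ER 48 h replicates 1 and 2; the adjusted p reached 0.154). Parental cells ran another way, from 8.20, 6.56 and 8.56 CPM at 0 h down to 4.13, 4.18 and 3.92 CPM at 48 h.

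SRXN1, sulfiredoxin, repairs over-oxidised peroxiredoxins. It stood at 64.2, 67.1 and 67.1 CPM in MYC-ER cells at 0 h and at 173, 168 and 170.0 CPM at 8 h, a 2.58-fold rise (log2 change 1.37, SE 0.0462, adjusted p 1.26e-16). At 24 h it was still 2.09-fold above 0 h, at 145, 136 and 135 CPM. The libraries at 48 h, at 65.9, 62.9 and 63.4 CPM, overlapped those at 0 h, with a log2 change of -0.05 (adjusted p 0.46) that turned to 0.12 (adjusted p 0.01) when libraries were scaled by their totals alone. The parental libraries lay between 90.4 and 126 CPM at every time, so MYC-ER cells began below, and at 8 and 24 h exceeded, all parental levels.

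HMOX1, haem oxygenase 1, splits haem into biliverdin, iron and carbon monoxide, and is among the best known NRF2 and BACH1 targets. It moved opposite to SRXN1. MYC-ER libraries held 8.90, 8.90 and 9.40 CPM at 0 h, 2.18, 2.02 and 1.81 CPM at 8 h and 1.83, 2.30 and 2.32 CPM at 24 h. The level was 4.53-fold lower at 8 h (log2 change -2.18, SE 0.106, adjusted p 5.79e-14) and 4.22-fold lower at 24 h. Between 24 and 48 h it rose 3.02-fold, to 6.38, 6.73 and 6.37 CPM, which was still 1.40-fold below 0 h (adjusted p 0.000469). In parental cells HMOX1 went from 6.13, 4.98 and 5.83 CPM at 0 h to 4.32, 4.21 and 4.11 CPM at 8 h and 3.17, 3.27 and 3.51 CPM at 24 h.

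NFE2L2 itself fell modestly. Its libraries were at 157, 169 and 163 CPM in MYC-ER cells at 0 h and at 122, 118 and 113 CPM at 8 h, 1.39-fold lower (log2 change -0.47, SE 0.0577, adjusted p 2.49e-07). At 24 h they stood at 127, 116 and 119.7 CPM and at 48 h at 152, 154 and 152 CPM. The value at 48 h did not pass against 0 h (log2 change -0.10, adjusted p 0.184), and it turned to 0.07 under library totals alone. With only the 0 h and 48 h groups of this line in the fit, it passed as a fall (adjusted p 0.022). In MYC-ER cells the mRNA of the regulator was lowest at 8 and 24 h, when SRXN1, GCLM and TXN were highest.

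Glutamate-cysteine ligase, the first and rate-limiting enzyme of glutathione synthesis, has a catalytic subunit, GCLC, and a modifier subunit, GCLM. GCLM was at 14.5, 16.2 and 16.3 CPM in MYC-ER cells at 0 h and at 29.0, 29.0 and 25.6 CPM at 8 h, a 1.78-fold rise (log2 change 0.83, SE 0.0929, adjusted p 5.91e-08). It was 1.45-fold above 0 h at 24 h, at 25.2, 20.9 and 22.0 CPM. The libraries at 48 h, at 14.1, 14.3 and 13.8 CPM, lay just below those at 0 h, with a log2 change of -0.16 (adjusted p 0.184) that became 0.01 under library totals alone. With only the 0 h and 48 h groups of this line in the fit, GCLM passed as a fall (adjusted p 0.0412).

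GCLC, the subunit that holds the active site, did not follow GCLM. Its MYC-ER libraries were at 57.7, 57.7 and 59.3 CPM at 0 h and 55.7, 56.3 and 55.4 CPM at 8 h, where the log2 change of -0.06 (95% interval -0.20 to 0.08) gave an adjusted p of 0.422. It passed under 2 of 16 alternatives, at -0.12 and -0.20. At 48 h GCLC was at 67.6, 67.8 and 68.8 CPM, 1.17-fold above 0 h (adjusted p 0.00798). Over the 8 groups it was among the steadiest of the 9, with a 1.40-fold range of group means.

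TXN, thioredoxin, carries electrons from thioredoxin reductase to its target proteins. In MYC-ER cells it was at 109, 107 and 108 CPM at 0 h, 189, 169 and 179.8 CPM at 8 h and 186, 179 and 181 CPM at 24 h. The rise was 1.66-fold at 8 h (log2 change 0.73, SE 0.0941, adjusted p 5.23e-07) and 1.68-fold at 24 h. At 48 h TXN stood at 137, 137 and 132 CPM, 1.25-fold above 0 h.

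TXNRD1, the cytosolic thioredoxin reductase that recharges TXN, went the other way. It was at 79.4, 83.2 and 76.8 CPM in MYC-ER cells at 0 h and 62.8, 63.8 and 63.7 CPM at 8 h, 1.26-fold lower (log2 change -0.33, SE 0.0673, adjusted p 0.000178). At 24 h it was at 73.7, 68.3 and 71.3 CPM, with a log2 change of -0.17 and an adjusted p of 0.0375, and 8 of 16 alternatives lost that call, among them the removal of MYC-ER 0 h replicates 1 or 2 or MYC-ER 24 h replicates 2 or 3 (adjusted p 0.0662 to 0.138) and library totals alone (adjusted p 0.591). At 48 h, at 59.5, 62.9 and 62.1 CPM, it was 1.30-fold lower than at 0 h. A processed pseudogene of a ribosomal protein, RPL18AP3, lies in an intron of TXNRD1 on the same strand, and its own row held 75.0% to 195% of the counts given to TXNRD1; how the counting separated the 2 was not tested.

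PGD, 6-phosphogluconate dehydrogenase, makes NADPH in the pentose phosphate pathway, the reducing power that TXNRD1 and glutathione reductase spend. Its peak came later than those of OSGIN1, SRXN1 and GCLM. MYC-ER libraries were at 114, 126 and 127 CPM at 0 h, 159.7, 151 and 161 CPM at 8 h and 244, 232 and 234 CPM at 24 h. The rise was 1.29-fold at 8 h (log2 change 0.36, SE 0.0626, adjusted p 2.71e-05) and 1.93-fold at 24 h (log2 change 0.95, SE 0.063, adjusted p 1.45e-11). At 48 h it had come down to 158, 155 and 147 CPM, 1.25-fold above 0 h.

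At 24 h, 4 of the 9 genes were above 0 h in MYC-ER cells (GCLM, SRXN1, TXN, PGD), 3 were below it (NFE2L2, HMOX1, TXNRD1) and GCLC and OSGIN1 did not pass, in a comparison that 61.6% of all genes passed (30.4% higher, 31.2% lower). Replicates of 0 h and 24 h stood apart for 7 of the 9, beside 70.7% of all genes. The median log2 change was 0.15, beside -0.02 over all genes. At 48 h, 4 rose (GCLC, TXN, PGD, OSGIN1) and 2 fell (HMOX1, TXNRD1), beside 44.1% of all genes that passed (23.4% higher, 20.7% lower), and the largest change of the 9 was that of HMOX1. Replicates stood apart for 8 of the 9, beside 62.3% of all genes. The median of the 9 was then -0.05 and that of all genes 0.03. Of the genes that passed at 48 h, 53.0% were higher, and 73.8% were under library totals alone, which moved the median of all genes by 0.16. These 3 comparisons share the MYC-ER 0 h libraries.

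The steps between times show when each gene turned. From 8 to 24 h, TXNRD1 and PGD rose and GCLM, SRXN1 and OSGIN1 fell, with 55.5% of all genes passing (28.4% higher, 27.1% lower). Replicates stood apart for 6 of the 9, beside 65.0% of all genes. Higher genes were 51.2% of the calls, and 67.8% under library totals alone. PGD gained 1.50-fold over this step, while the TXNRD1 call (log2 change 0.17, adjusted p 0.0433) was lost in 8 of 16 alternatives, including the removal of any MYC-ER 8 h library or of MYC-ER 24 h replicates 1 or 3 (adjusted p up to 0.139). The GCLM call (log2 change -0.30, adjusted p 0.00943) was lost without MYC-ER 24 h replicate 2 (adjusted p 0.0585). From 24 to 48 h, 3 rose (NFE2L2, HMOX1, GCLC) and 5 fell (GCLM, SRXN1, TXNRD1, TXN, PGD), beside 53.7% of all genes (28.2% higher, 25.5% lower). Replicates stood apart for all 9, beside 68.0% of all genes. SRXN1 lost 2.16-fold in this step and HMOX1 gained 3.02-fold. The GCLC call (log2 change 0.16, adjusted p 0.0457) was lost in 9 of 16 alternatives, among them the removal of any of the 6 libraries (adjusted p up to 0.146), and that of TXNRD1 without MYC-ER 24 h replicate 1 or MYC-ER 48 h replicate 1 (adjusted p 0.0514 and 0.0518).

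**Figure D2:**
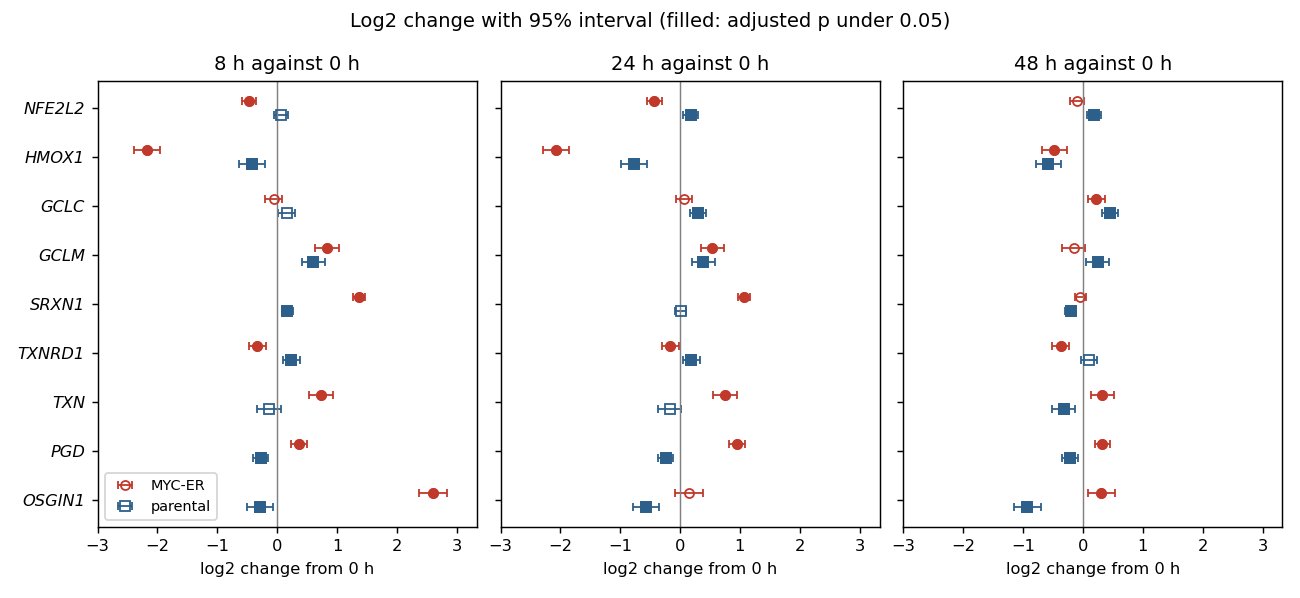
Log2 change of each of the 9 genes from 0 h at 8, 24 and 48 h of 4-OHT, with 95% intervals from the fit of all 24 libraries. Circles are MYC-ER and squares parental cells, and filled symbols have an adjusted p under 0.05. OSGIN1 (2.61) and SRXN1 (1.37) stand to the right and HMOX1 (-2.18) to the left in MYC-ER cells at 8 h, and all parental values lie between -0.93 and 0.60.

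Parental cells, which have no MYC-ER, also changed under 4-OHT. Their largest changes at 8 and 24 h (0.60 for GCLM and -0.77 for HMOX1) were smaller than the largest in MYC-ER cells. At 48 h, however, 6 of the 9 had the larger log2 change in parental cells (OSGIN1, GCLC, HMOX1, GCLM, SRXN1, NFE2L2). So did GCLC at 8 and 24 h, OSGIN1 at 24 h and, narrowly, TXNRD1 at 24 h (0.19 against -0.17 in MYC-ER cells). At 8 h, 3 of the 9 rose (GCLM, SRXN1, TXNRD1) and 3 fell (HMOX1, PGD, OSGIN1), when 31.0% of all genes passed (15.0% higher, 16.0% lower), and replicates stood apart for 4, beside 33.9%. At 24 h, 4 rose (NFE2L2, GCLC, GCLM, TXNRD1) and 3 fell (HMOX1, PGD, OSGIN1), when 42.9% passed (21.2% and 21.7%), and replicates stood apart for 5, beside 43.1%. At 48 h, 3 rose (NFE2L2, GCLC, GCLM) and 5 fell (HMOX1, SRXN1, TXN, PGD, OSGIN1), when 40.5% passed (20.4% and 20.1%), and replicates stood apart for 4, beside 39.0%. The largest change was that of OSGIN1 at 48 h, 1.91-fold lower (log2 change -0.93, SE 0.106, adjusted p 3.73e-06). Over the alternatives its log2 change ran from -1.04 to -0.48.

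These parental calls lean on the spread shared over all 24 libraries. With only the groups compared in the fit, 1 gene stayed past the threshold at 8 h (GCLM), 2 at 24 h (HMOX1, OSGIN1) and 3 at 48 h (GCLC up, HMOX1 and OSGIN1 down). The wide 0 h group shows in single genes. TXN was at 268, 239 and 335 CPM in the parental 0 h libraries and at 245, 207 and 223 CPM at 48 h, so the groups overlapped, and its fall at 48 h (log2 change -0.32, adjusted p 0.00874) did not pass without parental 0 h replicate 3 (adjusted p 0.22) or parental 48 h replicate 2 (adjusted p 0.0541). GCLC ran from 48.5, 55.7 and 41.3 CPM at 0 h to 66.3, 65.3 and 67.6 CPM at 48 h without overlap, a 1.37-fold rise (adjusted p 2.88e-05). PGD was at 305, 255 and 305 CPM at 0 h and 234, 245 and 264 CPM at 48 h. GCLM rose most at 8 h, from 21.8, 26.2 and 20.1 CPM to 35.2, 34.4 and 33.7 CPM (1.52-fold, adjusted p 6.71e-05).

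Single parental libraries decided several of the smaller calls. Without parental 0 h replicate 1 or 3, OSGIN1 and TXNRD1 at 8 h, NFE2L2 and TXNRD1 at 24 h, and GCLM and PGD at 48 h no longer passed, with adjusted p-values of 0.0505 to 0.239. At 8 h the OSGIN1 call (log2 change -0.29, adjusted p 0.0438) was also lost without any parental 8 h library, and that of TXNRD1 without parental 8 h replicate 1. At 24 h NFE2L2 and TXNRD1 needed parental 24 h replicate 2, and TXNRD1 also replicate 3. At 48 h GCLM needed parental 48 h replicates 1 and 3, and NFE2L2 (log2 change 0.18) needed parental 0 h replicate 1 and 48 h replicate 3. Without parental 0 h replicate 2, which was the highest of its group for GCLC, NFE2L2 and TXNRD1, a rise passed for GCLC (0.27) and NFE2L2 (0.14) at 8 h and for TXNRD1 (0.21) at 48 h, and a fall of TXN passed at 8 h (-0.24) and 24 h (-0.28).

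The parental changes ran with base composition. Across 9784 genes, the log2 change from 0 h had a Spearman correlation with the GC content of the transcript of -0.636, -0.676 and -0.667 in parental cells at the 3 times in order, and of 0.015, -0.063 and 0.031 in MYC-ER cells. Genes are not independent replicates, and the parental values share the 0 h libraries, so no p is given. Among the 9, the transcripts of GCLM (37.3% GC), GCLC (44.3%) and NFE2L2 (45.6%) rose in parental cells at 48 h, and those of PGD (52.9%), SRXN1 (53.6%), HMOX1 (58.1%) and OSGIN1 (63.5%) fell, as did TXN (42.8%). With the GC trend of each library removed, GCLC still rose and HMOX1, TXN and OSGIN1 still fell at 48 h, NFE2L2, SRXN1 and PGD no longer passed, and GCLM turned to a fall (log2 change -0.17, adjusted p 0.0417). With the length trend removed as well, HMOX1 no longer passed (log2 change -0.19, adjusted p 0.123). At 8 h, GCLM, SRXN1 and TXNRD1 still rose and PGD still fell, whereas HMOX1 (log2 change -0.24, adjusted p 0.065) and OSGIN1 (0.00, adjusted p 0.991) did not pass. At 24 h, NFE2L2, GCLM (-0.02), TXNRD1 and OSGIN1 (-0.18) did not pass with the trend removed, while a rise of SRXN1 (0.14) and a fall of TXN (-0.40) did.

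**Figure D3:**
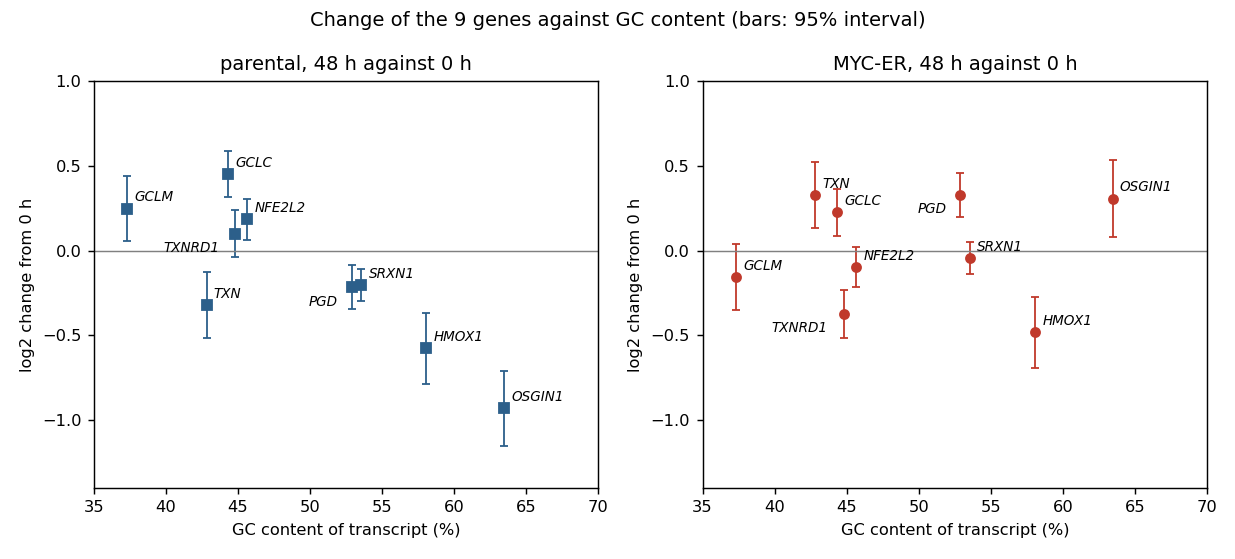
Log2 change from 0 h at 48 h of 4-OHT for each of the 9 genes against the GC content of its transcript in percent, with 95% intervals, in parental (left, squares) and MYC-ER cells (right, circles). In parental cells the value runs from 0.25 for GCLM at 37.3% GC to -0.93 for OSGIN1 at 63.5% GC; in MYC-ER cells the same genes stand at -0.16 and 0.31.

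Each of the 9 genes passed in the comparison of the untreated lines, as did 64.3% of all genes (31.6% higher and 32.7% lower in MYC-ER cells). MYC-ER cells held less OSGIN1, TXN, PGD, SRXN1 and GCLM, and more HMOX1, TXNRD1, NFE2L2 and GCLC. The replicates of the lines did not overlap for any of the 9, as for 65.0% of all genes. The median difference of the 9 (log2 MYC-ER minus parental) was -0.54, beside 0.00 over all genes. OSGIN1 differed most, at 1.55 ± 0.21 CPM (SD, n = 3) in MYC-ER and 7.77 ± 1.07 CPM in parental cells, 5.03-fold lower (adjusted p 6.45e-14).

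TXN was 2.60-fold lower in MYC-ER cells at 0 h (adjusted p 3.16e-11), PGD 2.35-fold lower (adjusted p 1.97e-13) and SRXN1 1.66-fold lower (adjusted p 5.34e-12). HMOX1 was 1.61-fold and TXNRD1 1.59-fold higher, with adjusted p-values of 3.89e-06 and 1.41e-08. GCLC, 1.20-fold higher (adjusted p 0.00143), was the only one of the 9 whose call was lost in any of 16 alternatives, with only these 2 groups in the fit (adjusted p 0.0675). Sizes moved more than calls. Over the alternatives the log2 difference ran from 0.60 to 1.13 for HMOX1 and from -0.98 to -0.42 for GCLM. It ran from -1.32 to -0.92 for PGD and from -2.44 to -1.90 for OSGIN1. Across genes, the difference between the lines had a Spearman correlation of -0.263 with GC content. This comparison and the MYC-ER changes from 0 h use the same MYC-ER 0 h libraries, so the values stand side by side and are no independent evidence of one another.

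The line by time interaction (the change in MYC-ER cells less that in parental cells) tests which of these movements differed between the lines. It uses both 0 h groups at each time. At 8 h, 4 of the 9 differed upward (OSGIN1, SRXN1, TXN, PGD) and 3 downward (HMOX1, TXNRD1, NFE2L2), with 55.2% of all genes passing (27.3% upward, 27.8% downward). The largest were OSGIN1 at 2.89 (SE 0.153, adjusted p 7.36e-13), HMOX1 at -1.76 (SE 0.145, adjusted p 9.68e-10) and SRXN1 at 1.20 (SE 0.0644, adjusted p 9.55e-13). GCLM rose in both lines at 8 h, and the difference of 0.23 between them had a 95% interval of -0.04 to 0.50 (adjusted p 0.14); it passed without parental 0 h replicate 3 and with the GC trend removed, at up to 0.57. GCLC, at -0.22 (adjusted p 0.0526), passed without parental 0 h replicate 2 (-0.33) and in 6 further alternatives.

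At 24 h, 4 differed upward (PGD, SRXN1, TXN, OSGIN1) and 4 downward (HMOX1, NFE2L2, TXNRD1, GCLC), with 54.5% of all genes passing (27.7% and 26.8%). PGD had 1.19 (SE 0.0886, adjusted p 2.07e-10) and SRXN1 1.06 (SE 0.0644, adjusted p 7.59e-12). The GCLC value of -0.23 (adjusted p 0.0408) was lost in 17 of 22 alternatives, among them the removal of any MYC-ER 0 h library, of parental 0 h replicates 1 or 3, of parental 24 h replicates 1 or 2, or of MYC-ER 24 h replicates 2 or 3 (adjusted p 0.0555 to 0.0937). TXNRD1 (-0.36) was lost with GC and length trends removed. At 48 h, 4 differed upward (OSGIN1, TXN, PGD, SRXN1) and 3 downward (TXNRD1, GCLM, NFE2L2), with 45.0% passing (23.6% and 21.4%). OSGIN1 stood at 1.24 (SE 0.153, adjusted p 1.21e-06), with a parental change of -0.93 and a MYC-ER change of 0.31. Over the alternatives this OSGIN1 value ran from 0.81 to 1.35. The SRXN1 value of 0.16 (adjusted p 0.0472) was lost in 13 of 22 alternatives, among them the removal of any MYC-ER library, of parental 0 h replicate 3 or of parental 48 h replicates 1 or 2 (adjusted p 0.0545 to 0.149), and turned to -0.01 with GC and length trends removed, and with the replicate number as a block its adjusted p was 0.0542. The GCLM value of -0.40 (adjusted p 0.0154) turned to 0.07 with the GC trend removed. With GC and length trends removed it was 0.23 and passed in the opposite direction (adjusted p 0.049). HMOX1, at 0.10 (adjusted p 0.632), turned to -0.33 with GC and length trends removed and then passed (adjusted p 0.0416). GCLC, at -0.23 (adjusted p 0.0522), passed without parental 0 h replicate 2 (-0.34). NFE2L2 (-0.28) was lost with the GC trend removed and under library totals alone.

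Ordered over the 8 groups, the levels of the 9 genes fell into different sequences. OSGIN1 had the widest range, 6.09-fold between its lowest (MYC-ER 0 h) and highest group mean (MYC-ER 8 h), then HMOX1 with 4.53-fold, SRXN1 with 2.66-fold, TXN with 2.60-fold, GCLM with 2.46-fold and PGD with 2.35-fold. TXNRD1 (1.59-fold), GCLC (1.40-fold) and NFE2L2 (1.39-fold) ranged least. HMOX1 was highest in MYC-ER at 0 h and 48 h, then in parental cells at 0 h, and lowest in MYC-ER at 24 and 8 h, and only 2 of its 7 neighbouring pairs of groups overlapped (parental 8 h with parental 48 h, and MYC-ER 24 h with MYC-ER 8 h). TXN was at 207 CPM or more in every parental library and at 189 CPM or less in every MYC-ER library. PGD in MYC-ER at 24 h, at 236 ± 6.31 CPM (SD, n = 3), reached the parental level of 244 ± 7.42 CPM at that time, although at 0 h it had been 122 ± 6.98 against 288 ± 28.8 CPM. GCLC, TXNRD1 and PGD each had 5 neighbouring pairs that overlapped, so most of their order is not resolved beyond the spread.

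Per kilobase of transcript, which allows levels of different genes to be compared, TXN was the most abundant of the 9 at 0 h in both lines, at 323 CPM per kilobase in parental and 124 in MYC-ER cells. PGD followed, at 153 and 64.9 CPM per kilobase. At the other end of the parental order were GCLM with 4.68, OSGIN1 with 3.25 and HMOX1 with 3.10 CPM per kilobase. In MYC-ER cells OSGIN1 was the lowest, at 0.65 CPM per kilobase, below GCLM at 3.22 and HMOX1 at 4.98. The catalytic subunit GCLC, at 15.3 CPM per kilobase in MYC-ER and 12.7 in parental cells, exceeded the modifier GCLM in both.

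As a description of the patterns, Pearson's r was taken over the 8 group means of log2 CPM. NFE2L2 and SRXN1 ran opposite, with r = -0.932 over the 8 group means, HMOX1 and SRXN1 likewise with r = -0.884, and TXN and PGD ran together with r = 0.926. NFE2L2 had a positive r with HMOX1 (0.778), GCLC (0.522) and TXNRD1 (0.383). Its r with GCLM, TXN, PGD and OSGIN1 was negative (-0.662 to -0.591). GCLM and GCLC had r = -0.354, and TXN and TXNRD1 r = -0.827. Group means of 1 line share its cells, so these values carry no p. Among 10767 genes with a highest group mean of at least 10 CPM, the closest to NFE2L2 included AGO4 (r = 0.982), the closest to HMOX1 were SNN and GSTM4 (both 0.985), and those to GCLC were TMLHE (0.945) and PGAP1 (0.936). GCLM was closest to MFSD14B (0.983) and CAPZA1 (0.974), SRXN1 to UMPS (0.996) and YRDC (0.993), and TXNRD1 to RBBP4 (0.985) and SNX27 (0.960). TXN was closest to TIMP1 (0.989) and DAZAP1 (0.984), PGD to GLA (0.988) and SUMF1 (0.984), and OSGIN1 to CHMP6 and LYPLA2 (both 0.992). None of the 9 was among these matches of another, and the r of 8 points over so many genes describes a shape only.

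A further 55 genes of the pathway, grouped by role, give the surroundings of the 9, and 51 of them were tested. In MYC-ER cells at 8 h, 21 rose and 26 fell, beside 32.2% and 35.4% of all genes, with a median log2 change of -0.18 beside -0.10 over all genes. At 24 h, 17 rose and 23 fell, beside 30.4% and 31.2% of all genes. At 48 h, 13 rose and 21 fell, beside 23.4% and 20.7%, and library totals alone turned this balance to 22 and 15 and the median from -0.13 to 0.03. Parental cells at 48 h had 10 that rose and 36 that fell, beside 20.4% and 20.1% of all genes (median -0.35, beside 0.00). With only the groups compared these counts were 3 and 20, and 5 rose without parental 0 h replicate 1 or parental 48 h replicate 3. Over all alternatives, which include removal of the GC trend, 20 to 37 fell and the median ran from -0.427 to -0.085. Across all genes compared with GC content, the log2 changes of this comparison had a Spearman correlation of -0.667 with it. Between the lines at 0 h, 15 were higher and 32 lower in MYC-ER, beside 31.6% and 32.7% of all genes (median -0.49).

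Among the regulators at 8 h in MYC-ER cells, 5 of 9 rose and 4 fell, beside 32.2% and 35.4% of all genes. KEAP1, which holds NRF2 back, was 1.15-fold lower (adjusted p 0.0076), at 84.2 ± 0.56 CPM (SD, n = 3) at 0 h and 73.1 ± 3.28 CPM at 8 h. BACH1, the repressor that competes with NRF2 at HMOX1, rose 1.39-fold (adjusted p 0.00503), from 43.6 ± 1.98 to 60.4 ± 2.13 CPM. MAFK, a small MAF protein that partners both, rose 3.30-fold, from 18.3 ± 0.97 to 60.4 ± 1.51 CPM, and NFE2L1, a relative of NFE2L2 that drives proteasome genes, was 3.59-fold lower. Parental cells, with the drug alone, moved the same way for KEAP1, from 91.1 to 74.2 CPM at 8 h. Their BACH1 mean went from 28.8 to 41.8 CPM at 8 h and 61.6 CPM at 24 h. Their NFE2L1 went from 604 to 439 CPM at 8 h, and their MAFK from 39.1 to 37.7 CPM. Across genes, parental changes at 8 h had a Spearman correlation of -0.636 with GC content. The part of that trend in these parental regulator values was not tested. At 0 h BACH1 was 1.51-fold higher in MYC-ER than in parental cells (43.6 ± 1.98 against 28.8 ± 9.52 CPM), a call lost with GC and length trends removed, MAFK 2.14-fold lower, and RBX1, a ring subunit of the CUL3 ligase, 1.85-fold lower; KEAP1 did not pass (log2 difference -0.11, adjusted p 0.123) and turned to 0.15 with the GC trend removed.

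Of 10 glutathione genes tested, 3 rose and 5 fell at 8 h in MYC-ER cells, beside 32.2% and 35.4% of all genes, and the number that fell was 4 to 7 over the alternatives. GPX4, which reduces lipid peroxides, was 2.54-fold lower and MGST1, a membrane glutathione transferase, 2.18-fold lower. Against parental cells at 0 h, MYC-ER had 3 higher and 7 lower, beside 31.6% and 32.7% of all genes. SLC7A11, the cystine carrier that supplies glutathione synthesis, was 4.44-fold lower (6.48 ± 0.25 against 28.8 ± 10.3 CPM, SD, n = 3), and GPX1, a glutathione peroxidase, 2.01-fold lower. With GC and length trends removed, their log2 differences became -2.77 and -0.41. GPX1 and GPX4 have processed pseudogenes, so reads could be split between copies.

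Of the 9 thioredoxin and peroxiredoxin genes, 4 rose and 4 fell at 8 h, beside 32.2% and 35.4% of all genes; with upper-quartile scaling 2 rose and 5 fell. PRDX1, a peroxiredoxin that SRXN1 repairs, rose 2.11-fold, from 163 ± 5.65 to 343 ± 13.7 CPM (SD, n = 3). TXNIP, which binds and inhibits TXN, was 2.78-fold lower, from 1836 ± 31.7 to 661 ± 16.0 CPM. Against parental cells at 0 h, MYC-ER held 3.74-fold more TXNIP and 3.47-fold less PRDX1. Among the NADPH enzymes at 8 h, 3 of 5 rose and 2 fell, beside 32.2% and 35.4% of all genes: malic enzyme ME1 rose 2.62-fold and IDH1 was 1.98-fold lower. At 0 h, 4 of the 5 were lower in MYC-ER cells, beside 32.7% of all genes, with TALDO1, transaldolase of the pentose phosphate pathway, 3.02-fold lower.

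**Figure D4:**
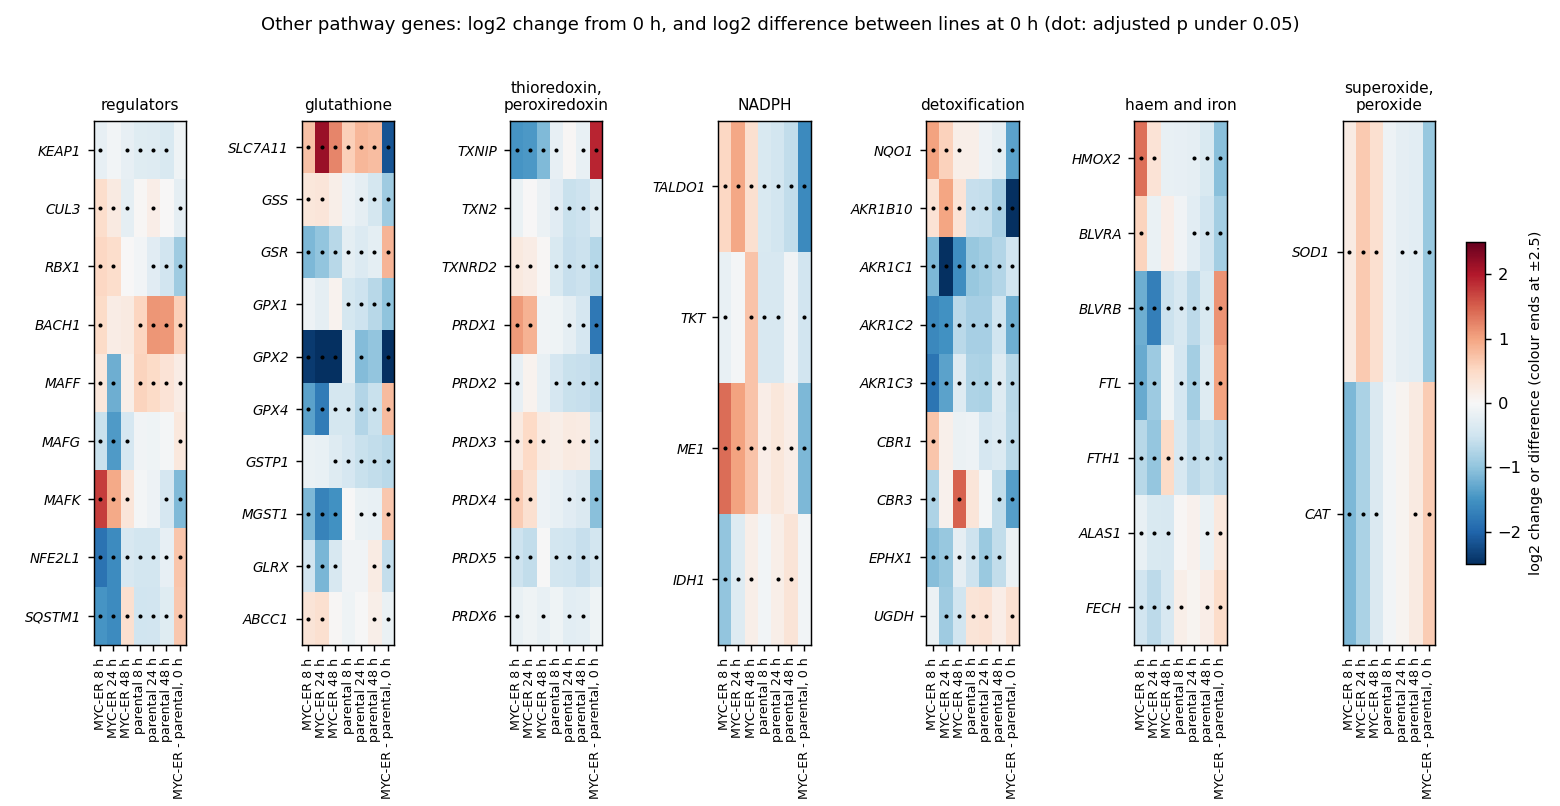
Log2 change from 0 h in MYC-ER and parental cells at 8, 24 and 48 h, and log2 difference between the lines at 0 h (MYC-ER minus parental), for further pathway genes grouped by role, 1 of those tested being left out. Red is higher and blue lower, the colour ends at 2.5 in either direction, and a dot marks an adjusted p under 0.05; the NADPH genes are blue in the line column, with TKT and IDH1 pale, while ME1 is red throughout the MYC-ER columns.

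Detoxification genes split at 8 h, with 3 of 9 higher and 5 lower, beside 32.2% and 35.4% of all genes. NQO1, a quinone reductase often read as an NRF2 target, rose 2.02-fold, from 92.6 ± 3.02 to 187 ± 7.07 CPM (SD, n = 3), but the aldo-keto reductases AKR1C3 and AKR1C2 were 3.55-fold and 3.07-fold lower; these paralogues are alike in sequence and their reads may be shared. Against parental cells at 0 h, 7 of the 9 were lower in MYC-ER cells, beside 32.7% of all genes, AKR1B10 by 11.8-fold and NQO1 by 2.52-fold. In the haem and iron group 2 of 7 rose and 5 fell at 8 h, beside 32.2% and 35.4% of all genes. HMOX2, the second haem oxygenase, rose 2.58-fold while HMOX1 fell, from 42.0 ± 0.13 to 108 ± 6.91 CPM, and FTL, ferritin light chain, which has many pseudogenes, was 2.39-fold lower. BLVRB, biliverdin reductase B, was 2.17-fold higher in MYC-ER than in parental cells at 0 h and HMOX2 2.07-fold lower. SOD1, superoxide dismutase, rose 1.16-fold at 8 h, a call lost under scaling by library totals or the upper quartile, and catalase, CAT, was 2.19-fold lower.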

How the data were processed

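RNA-seq of 24 MCF-10A libraries (2 lines, 4 times, 3 replicates) was analysed from 1 deposited table of 60668 gene rows. The table holds estimated counts, deposited by the authors as whole numbers. Per the submitters' processing notes, Trimmomatic 0.39, STAR and StringTie 2.1.3b were used with GRCh38; StringTie derives counts from coverage. The annotation release, strand setting and treatment of multiply mapped reads are not given in the sources used here, so genes that overlap or have near-identical copies are uncertain.

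Samples were grouped by the labels. After edgeR's filterByExpr, 22158 genes were scaled by TMM and fitted over all 24 libraries with edgeR 4.0.16's quasi-likelihood test (limma 3.58.1, R 4.3.3), 1 coefficient per group, without a replicate block. In all, 12 contrasts were tested, each with Benjamini-Hochberg adjustment over all genes and a threshold of 0.05. CPM use TMM-scaled library sizes, and GC content and length are those of the longest GENCODE transcript of a gene; log2 CPM for the pattern comparison use a prior count of 2. Variation between replicates beyond counting error (edgeR's common coefficient of variation, 1 value for all 8 groups) was 0.151. Totals of 136860029 to 182438505 counts make counting error small beside it.

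Alternatives changed the scaling (DESeq2 size factors, library totals alone, upper quartile), the filter, the libraries in the fit, the test (DESeq2 1.42.0, Wald), the replicate block and each library in turn. Removal of GC and length trends was chosen after seeing the data. This made 16 alternatives for a comparison of 2 groups and 22 for an interaction. The scripts were checked on simulated counts only for MYC-ER cells at 8 h against 0 h, with far fewer genes changed than passed here. That check did not cover scaling when most genes change, the interactions, or the removal of GC and length trends.

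The 9 genes, the pathway lists and the tests were chosen with earlier results of these data known. The 9 are named in every comparison. Of the 55 further genes, those named are KEAP1, BACH1 and, per role, the 2 with the largest change that passed at 8 h in MYC-ER cells and the 2 between the lines at 0 h, with at least 10 CPM in the higher group. SOD2, was not analysed here, and GPX3, GSTM3 and SLC40A1 had too few counts. Promoters are from RefSeq. Some genes that this rule or the pattern comparison selects are not reported here.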

Additional observations from a re-analysis of the deposited data

Results flagged for a closer look

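Changes that differed between the lines by the line by time interaction (log2, MYC-ER change from 0 h minus parental change from 0 h, edgeR quasi-likelihood test with adjusted p under 0.05) are collected here. At 8 h these were OSGIN1 with 2.892, SRXN1 with 1.198, TXN with 0.865, PGD with 0.64, NFE2L2 with -0.533, TXNRD1 with -0.565 and HMOX1 with -1.757. At 24 h the values were 1.19 for PGD, 1.056 for SRXN1, 0.927 for TXN, 0.722 for OSGIN1, -0.231 for GCLC, -0.356 for TXNRD1, -0.605 for NFE2L2 and -1.309 for HMOX1. At 48 h they were 1.237 for OSGIN1, 0.646 for TXN, 0.544 for PGD, 0.161 for SRXN1, -0.281 for NFE2L2, -0.404 for GCLM and -0.475 for TXNRD1. With GC and length trends removed, GCLM at 48 h turned to 0.232 (adjusted p 0.049) and SRXN1 to -0.009. The call of GCLC at 24 h was lost in 17 of 22 alternatives and that of SRXN1 at 48 h in 13. Interactions passed for 55.2%, 54.5% and 45.0% of all genes at the 3 times, which share both 0 h groups.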

How the results depend on the processing

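Of 108 results for the 9 genes (9 genes, 12 comparisons), 86 passed the threshold, and 57 of these kept direction and call under every alternative; of the 22 that did not pass, 1 did so. At 8 h in MYC-ER cells the 8 calls held under all 16 alternatives, and GCLC gained a call in 2.

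Library totals alone turned NFE2L2 to 0.065, GCLM to 0.005 and SRXN1 to 0.117 in MYC-ER at 48 h against 0 h. For MYC-ER 24 h against 8 h, TXN turned to -0.021 without MYC-ER 8 h replicate 2 and to -0.094 with GC and length trends removed. For parental cells at 8 h, TXN turned to 0.024 without parental 0 h replicate 3, and OSGIN1 to 0.004 with the GC trend and 0.033 with GC and length trends removed. At 24 h, in the same order, GCLM turned to -0.023 and -0.13, TXNRD1 to -0.011 and PGD to 0.01 with GC and length trends removed, and SRXN1 to -0.069 with upper-quartile scaling and -0.011 without parental 0 h replicate 1. At 48 h GCLM turned to -0.171 and -0.283, TXNRD1 to -0.017 and -0.085, and PGD to 0.037 with GC and length trends removed. In the interaction at 48 h, HMOX1 turned to -0.139 and -0.333, GCLM to 0.074 and 0.232, and GCLC to 0.025 and SRXN1 to -0.009 with GC and length trends removed. KEAP1 between the lines at 0 h turned to 0.151 and 0.218. The cause was not tested.

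Counts of the 9 genes also moved. With only the groups compared in the fit, 4 fell in MYC-ER cells at 48 h, and parental counts were 1 higher and 0 lower at 8 h, 0 higher at 24 h, and 1 higher and 2 lower at 48 h; genes called in the whole table then numbered 1452, 4923 and 3274 in place of 6870, 9503 and 8978. From 8 to 24 h in MYC-ER cells, the number that rose was 1 with DESeq2 size factors, without the filter and by DESeq2's Wald test, 6 under library totals alone, and 4 with upper-quartile scaling and with the GC trend removed. With GC trends removed, parental counts were 1 lower at 8 h (1 with GC and length), 2 higher at 24 h (2 with GC and length, 2 with upper-quartile scaling), 1 higher at 48 h and, with GC and length, 1 lower at 24 h and 3 lower at 48 h. Interaction counts of lower genes were 2 at 24 h with GC and length trends removed, and 1 at 48 h under library totals alone and with the GC trend removed. Leaving out 1 library at a time gave TXN values of -0.021 to 0.062 for 24 h against 8 h and of -0.241 to 0.024 for parental 8 h, and SRXN1 values of -0.011 to 0.057 for parental 24 h. The counts were then 1 to 2 higher for 24 h against 8 h, and for parental cells 2 to 5 higher at 8 h, 2 to 4 at 24 h, and 1 to 4 higher and 3 to 5 lower at 48 h.

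Replicate numbers showed no general pairing of the samples. Same-numbered libraries of different groups had a mean correlation of deviations of -0.013 (-0.428 to 0.586), beside 0.007 for other numbers. Of 24 libraries, 9 correlated best with their own number. A mean over all groups cannot exclude pairing between some of them. The replicate block gave 14890 genes in place of 14975 at 8 h in MYC-ER cells. Among the 9 genes it added the GCLC interaction at 8 h (-0.222, adjusted p 0.0468) and 48 h (-0.231, adjusted p 0.0466), took away that of SRXN1 at 48 h (0.161, adjusted p 0.0542) and changed no other call.

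In the interaction at 48 h, 52.5% of calls were higher, and 63.5% under library totals alone. The lowest count of any of the 9 genes in a library was 235, and the effect of depth was not tested.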
